A study of Homo sapiens with 6 samples.

Results

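The collagen genes and the genes of the proteins that fold, modify, cut and cross-link collagen were followed in a human breast cancer line of the triple-negative kind, MDA-MB-231, treated with disulfiram and copper. A protein-coding gene was taken as a member when its symbol had the form COL, a number, A and a number, which gave 44 collagen genes, or when it was one of 13 named genes (SERPINH1, PLOD1, PLOD2, PLOD3, P3H1, CRTAP, LOX, LOXL1, LOXL2, LOXL3, LOXL4, BMP1 and PCOLCE). These 57 genes stand among 58825 in the deposited table, of which 19727 are protein-coding. The 13 are called the enzymes here, although SERPINH1 is a chaperone, CRTAP a scaffold partner and PCOLCE an enhancer protein.

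The DSF/Cu group holds 3 libraries of cells given disulfiram with copper (0.2 µM) for 24 h, and the DMSO group holds 3 libraries of cells given the solvent. All cells grew in the same serum-containing medium, and each library pools the cells of 3 wells. Both groups are 1 cell line with no other cell layer, so the comparison covers the collagen made by the tumour cells alone. The comparison asks which of these genes differed in poly(A) RNA level after DSF/Cu.

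Collagens are proteins whose chains wind into triple helices. Inside the endoplasmic reticulum, prolyl and lysyl residues are hydroxylated, the helix folds with the help of the chaperone HSP47 (encoded by SERPINH1), and the procollagen leaves in large COPII carriers. Outside the cell, propeptides are cut off and lysyl oxidases, which need copper as a cofactor, oxidise lysines so that the chains become cross-linked. Disulfiram, whose metabolite binds copper, is an old drug for alcohol dependence, and carcinoma cells of mesenchymal character are known to express collagens and lysyl oxidases of their own.

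Upstream sequences are given for 4 places, 3 chosen for a rise and 1 for neighbours that share a stretch of DNA: SERPINH1, the enzyme with the largest rise; COL7A1 and COL15A1, the collagens with the largest rise among those with an FPKM of at least 1 and among those with 10 or more counts in every DMSO library; and the stretch between COL4A1 and COL4A2, which are transcribed away from each other. The sequences are from RefSeq on GRCh38.p14, read 5′ to 3′, ending just before the RefSeq start for the first 3. The deposited table starts SERPINH1 at 75562056 and COL15A1 at 98943179, so the marked letters of both lie inside the genes there. It starts COL4A2 at 110305812, so the last stretch lies inside COL4A2 there. Capitals mark a heat shock element of 3 alternating units in SERPINH1, GAANNTTC (a heat shock element core) in COL7A1, the metal response element core (TGCGCNC, or the variant with TGCACNC, on either strand) in COL15A1, and a CCAAT box and a GC box (GGGCGG) between COL4A1 and COL4A2. They lie at chr11:75562003-75562252 (plus strand), chr3:48595330-48595579 (minus strand), chr9:98943657-98943906 (plus strand) and chr13:110307158-110307283 (printed on the plus strand).
SERPINH1: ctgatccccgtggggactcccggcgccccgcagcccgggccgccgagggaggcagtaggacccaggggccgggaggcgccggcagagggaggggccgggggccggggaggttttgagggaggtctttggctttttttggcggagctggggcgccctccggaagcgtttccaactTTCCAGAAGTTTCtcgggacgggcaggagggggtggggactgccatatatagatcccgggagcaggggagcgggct
COL7A1: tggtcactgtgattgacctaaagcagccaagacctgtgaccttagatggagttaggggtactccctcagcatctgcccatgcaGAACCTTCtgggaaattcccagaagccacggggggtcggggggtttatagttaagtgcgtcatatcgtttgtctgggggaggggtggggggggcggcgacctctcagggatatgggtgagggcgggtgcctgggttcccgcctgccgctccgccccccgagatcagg
COL15A1: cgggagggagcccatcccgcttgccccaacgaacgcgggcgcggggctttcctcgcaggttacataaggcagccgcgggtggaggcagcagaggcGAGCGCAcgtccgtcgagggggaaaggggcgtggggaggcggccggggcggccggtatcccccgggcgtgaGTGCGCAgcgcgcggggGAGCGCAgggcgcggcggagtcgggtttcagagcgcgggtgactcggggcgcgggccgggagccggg
COL4A1 to COL4A2: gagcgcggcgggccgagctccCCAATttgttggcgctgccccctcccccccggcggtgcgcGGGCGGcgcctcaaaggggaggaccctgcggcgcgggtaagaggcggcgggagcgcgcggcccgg

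Of the 57 members, 43 had a RefSeq promoter window, and 250 bases before the start were searched on both strands in 35116 windows of all genes. The 3-unit heat shock element lay 76 to 64 bases before the RefSeq start of SERPINH1. It was found in 0.441% of all windows, and SERPINH1 was the member that held it. The shorter heat shock core (GAANNTTC or TTCNNGAA, which also matches within the 3-unit form) was in 11.6% of all windows and in those of 6 members, COL10A1, COL28A1, COL4A5, COL4A6, COL7A1 and SERPINH1. The metal response core was in 24.8% of windows and in those of 13 members. The antioxidant response core TGACNNNGC was in 10.9% of windows and in those of COL21A1, COL4A5 and COL4A6. CCAAT was in 32% of windows and in those of 14 members, and GGGCGG in 42.6% and in those of 31 members. The last pair and the 3-unit element were searched after the sequences had been seen. The 43 members had 59 windows, so member numbers and window percentages are not on the same scale. A match describes the letters and not the binding of a factor.

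The libraries held 55563223 to 61633168 counts in DSF/Cu and 62165212 to 70883177 in DMSO. Levels are given as TMM-scaled CPM, and as the authors' FPKM (per kilobase of transcript) where genes are set beside each other. The FPKM is not TMM-scaled, and the median log2 fold change of all genes was -0.15 in the limma fit of log2(FPKM + 0.1). Between groups, FPKM and CPM therefore differ by library scaling as well as by length. The edgeR quasi-likelihood test covered 18229 genes that passed a filter on low counts, and a gene was called at a Benjamini-Hochberg adjusted p under 0.05 over all of them. Raised calls made up 18.5% of tested genes and lowered calls 16.8%, 35.2% together, while in 26% every DSF/Cu library lay above every DMSO library and in 25.2% every one lay below. VIM and CD44, usual for this line, were abundant in both groups, and VIM fell (2734 ± 179 CPM in DSF/Cu and 3297 ± 213 CPM in DMSO, log2 -0.27, edgeR adjusted p = 0.0208). The fibroblast genes DCN and LUM were at 0 counts in all 6 libraries, and the 8 fibroblast markers summed to 2.48 to 2.68 CPM in DSF/Cu and 1.54 to 2.15 CPM in DMSO, with 0 of 2 tested markers called. CDH1 had at most 4 counts in a library, 3 of 6 tested luminal and epithelial markers fell (ERBB2, KRT18 and EPCAM), and 0 of 1 endothelial and 0 of 1 leukocyte markers tested were called. The part of these markers in the results was not tested. Bulk RNA cannot tell fewer cells from less RNA per cell, and the labels do not tell whether repeats came from cultures grown apart, so p-values measure the spread between these libraries.

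Collagen genes moved in both directions after DSF/Cu. Of the 44, 28 were tested, and 13 rose, 5 fell and 10 were not called. The 13 that rose, 46.4% of the 28 beside 18.5% of all tested genes, were mostly scarce. Of the 13, 10 had a mean FPKM under 1 in both groups. Another trait held for 5 (COL11A1, COL20A1, COL24A1, COL26A1 and COL28A1), which had under 10 counts in every DMSO library and could pass the filter only through DSF/Cu. These 5 count in the 46.4%, so nothing is concluded from that share. Among the 11 collagen genes with a mean FPKM of at least 1 in either group, 3 rose (COL12A1, COL7A1 and COL27A1), 4 fell (COL4A2, COL13A1, COL18A1 and COL6A1) and 4 were not called (COL4A1, COL6A2, COL5A1 and COL8A1). At an unadjusted p under 0.05 there were 18 collagen genes. Low counts clustered at multiples of 4 (24.1% of values from 1 to 10 equalled 4 and 13.3% equalled 8). The clustering was partial, since 14.3% of these values equalled 1, 12.7% equalled 2 and 9.1% equalled 3. With all counts divided by 4, 8 collagen genes rose instead of 13, beside 3347 raised of all 14874 genes tested in that fit. The 5 genes with under 10 counts in every DMSO library no longer passed the filter there.

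The 13 enzymes moved in both directions too, and all 13 were tested. SERPINH1, PLOD2 and LOX rose, while PLOD3, P3H1, CRTAP, LOXL1 and LOXL2 fell, and 5 were not called. The 5 that fell are 38.5% of the 13, beside 16.8% of all tested genes, and the 3 that rose are 23.1%, beside 18.5%. Their median log2 fold change was -0.40.

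**Figure D1:**
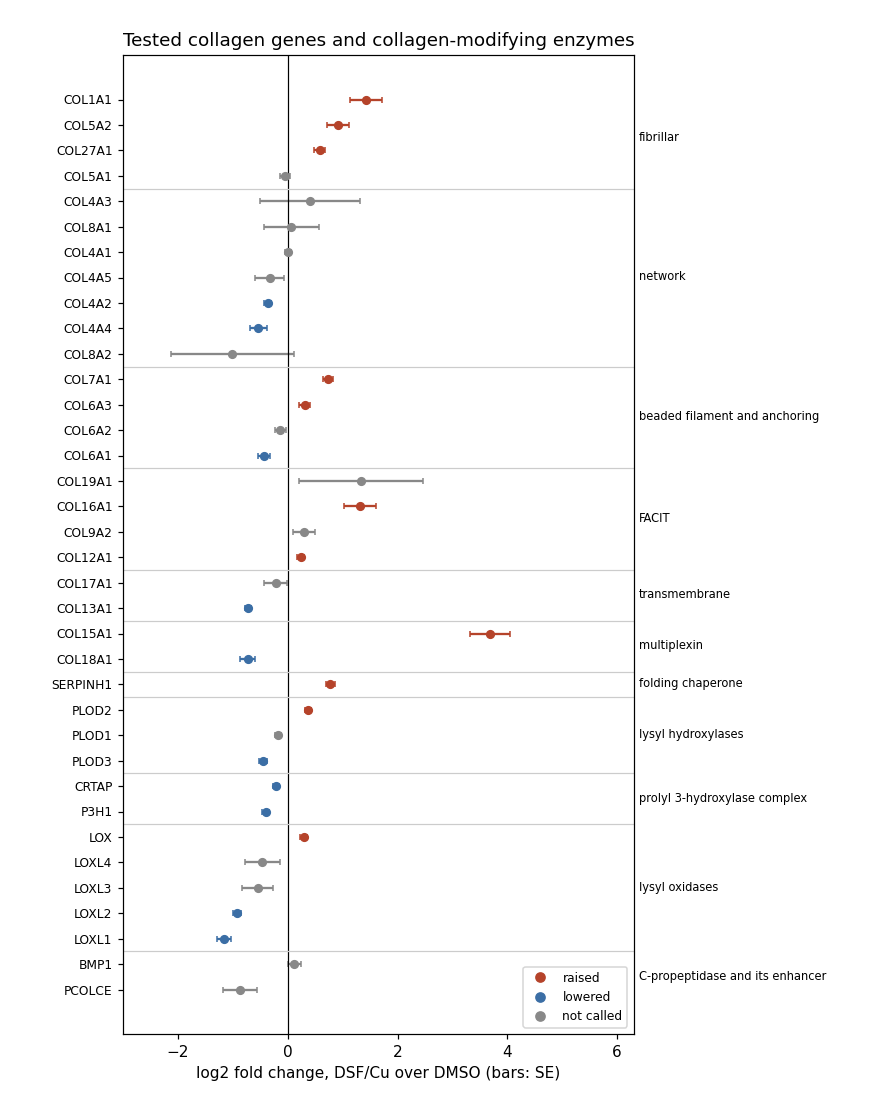
Log2 fold change of the tested members (DSF/Cu over DMSO, edgeR, horizontal axis) by class, with bars for the standard error and colour for the call. COL15A1 stands farthest to the right at 3.68 and LOXL1 farthest to the left among called genes at -1.16; 5 genes with at most 4 counts in any DMSO library (COL11A1, COL20A1, COL24A1, COL26A1 and COL28A1) are not drawn.

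SERPINH1 encodes HSP47, the chaperone that binds the folded procollagen helix in the endoplasmic reticulum. Its level was 496, 402 and 412 CPM in the DSF/Cu libraries and 245, 262 and 258 CPM in the DMSO libraries. Every DSF/Cu library lay above every DMSO library, and replicate 1 of DSF/Cu was the highest. The means were 436 ± 51.5 CPM in DSF/Cu and 255 ± 9.28 CPM in DMSO (SD, n = 3 each), which is 1.71-fold (log2 fold change 0.78 ± 0.09 SE, edgeR adjusted p = 0.00107). By FPKM it averaged 55.6 in DSF/Cu and 36.6 in DMSO, above all other members in DSF/Cu and next to CRTAP in DMSO (CRTAP averaged 36.8 FPKM in DSF/Cu and 48.3 FPKM in DMSO). Its upstream sequence is the one printed above with the 3-unit heat shock element.

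Lysyl hydroxylases add the hydroxyl groups on which lysine-derived cross-links and sugars depend, and their genes split. PLOD2, whose enzyme acts on the telopeptide lysines and is tied to stable cross-links, was at 231, 244 and 247 CPM in DSF/Cu and 181, 179.6 and 197 CPM in DMSO, with no overlap. It rose 1.29-fold (log2 0.37 ± 0.06, edgeR adjusted p = 0.00364), but under total-count scaling the difference was 0.19 with an adjusted p of 0.0567. PLOD3, whose enzyme also transfers sugars, was at 94.3, 81.6 and 85.5 CPM in DSF/Cu and 125, 112 and 120.0 CPM in DMSO. It fell (log2 -0.45 ± 0.08, edgeR adjusted p = 0.00504), and its groups did not overlap. PLOD1, which acts on helical lysines, was at 99.5, 97.7 and 93.0 CPM in DSF/Cu and 109, 114 and 105 CPM in DMSO. All 3 DSF/Cu values lay below the DMSO values, but the difference missed the threshold (log2 -0.18 ± 0.06, edgeR adjusted p = 0.0514) and passed it with DESeq2 (adjusted p = 0.00914), under total-count scaling (0.00272) and in both limma fits of FPKM (0.00283 and 0.0028). The 3 genes together summed to 424 ± 1.26 CPM in DSF/Cu and 414 ± 8.55 CPM in DMSO. By FPKM, which divides by length and is not TMM-scaled, they summed to 52.0 ± 0.618 in DSF/Cu and 59.3 ± 1.29 in DMSO. The direction of the sum thus depends on the scale. ZNHIT1 overlaps 202 bases of PLOD3 on the opposite strand; whether the counting used strand is not given in the sources used here, so reads from such overlaps cannot be told apart here or at LOX, LOXL1 and COL4A1.

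The prolyl 3-hydroxylase complex modifies single prolines of fibrillar chains and is lost in recessive forms of brittle bone disease. Its genes among the members, P3H1 and CRTAP, both fell. PPIB, which encodes a further partner of the complex and was counted among the modifiers below, rose (log2 0.24 ± 0.06, edgeR adjusted p = 0.0279). The FPKM values of PPIB overlapped between the groups. P3H1, the enzyme, was at 60.0, 59.3 and 65.3 CPM in DSF/Cu and 81.3, 81.4 and 81.6 CPM in DMSO. The DMSO values were nearly equal and every DSF/Cu value was lower (log2 -0.40 ± 0.06, edgeR adjusted p = 0.00299). CRTAP, its scaffold partner, was at 320.3, 309.7 and 294 CPM in DSF/Cu and 370.1, 362 and 343 CPM in DMSO. The fall was small (log2 -0.22 ± 0.05, edgeR adjusted p = 0.0213) and was no longer called without DMSO replicate 1 (adjusted p = 0.0572) or 2 (0.0672) and without DSF/Cu replicate 2 (0.0627) or 3 (0.065).

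Lysyl oxidases, the copper enzymes of cross-linking, did not move together: LOX rose slightly while LOXL1 and LOXL2 fell. LOXL2, which acts on collagen IV among others and is studied in breast cancer spread, was at 78.3, 88.2 and 81.7 CPM in DSF/Cu and 158, 149 and 164 CPM in DMSO. Each DSF/Cu value lay far under the lowest DMSO value (log2 -0.93 ± 0.07, edgeR adjusted p = 0.000226), and the DMSO level was 1.90 times that in DSF/Cu. ENTPD4 overlaps LOXL2 by 39509 bases on the same strand. Its counts were 1115, 1240 and 1238 in DSF/Cu and 1767, 1599 and 1511 in DMSO. They are not scaled for library size and the DSF/Cu libraries were smaller, so no fall of ENTPD4 is read from them. How reads shared by ENTPD4 and LOXL2 were assigned is not known. LOXL1, known for its part in elastic fibres, was at 7.87, 7.95 and 7.51 CPM in DSF/Cu and 19.6, 17.4 and 15.2 CPM in DMSO. It fell by 1.16 on the log2 scale (SE 0.13, edgeR adjusted p = 0.00089), the largest fall called among the members. The antisense gene LOXL1-AS1, which overlaps it by 2215 bases, had 694, 883 and 504 counts in DSF/Cu and 1451, 1404 and 1253 counts in DMSO, so both genes of the locus were lower in DSF/Cu, and the fall of LOXL1 is uncertain to that extent.

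LOX, the founding member, was at 68.2, 68.9 and 67.5 CPM in DSF/Cu and 56.2, 51.9 and 59.4 CPM in DMSO. It rose 1.22-fold (log2 0.29 ± 0.07, edgeR adjusted p = 0.0171), with no overlap between groups. The call was lost under total-count scaling (log2 0.10, adjusted p = 0.297), where the median of all genes shifts by -0.18, in both limma fits of FPKM (0.222 and 0.221), without DMSO replicate 2 (0.0531) and without DSF/Cu replicate 2 (0.0546). SRFBP1 overlaps LOX by 12376 bases on the opposite strand. Its counts were 1657, 1932 and 1517 in DSF/Cu and 1398, 1503 and 1382 in DMSO, higher in DSF/Cu although those libraries were smaller. The rise of LOX is uncertain to that extent. LOXL3 was at 1.19, 1.54 and 1.65 CPM in DSF/Cu and 2.27, 1.46 and 2.66 CPM in DMSO (log2 -0.55 ± 0.29, edgeR adjusted p = 0.189). LOXL4 was at 2.07, 1.13 and 1.59 CPM in DSF/Cu and 2.47, 2.63 and 1.51 CPM in DMSO (log2 -0.46 ± 0.32, edgeR adjusted p = 0.316). The groups overlapped in LOXL3 and LOXL4. Summed over the 5 genes, lysyl oxidase RNA came to 162 ± 5.33 CPM in DSF/Cu and 235 ± 10.5 CPM in DMSO, 0.689 times the DMSO level. By FPKM, which is not TMM-scaled, it came to 23.8 ± 0.993 in DSF/Cu and 39.2 ± 1.85 in DMSO, 0.606 times the DMSO level. LOXL2, which held more of the sum than LOX in both groups, was the gene that carried most of the difference.

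BMP1, the protease that removes the C-terminal propeptide, was at 9.89, 9.94 and 9.42 CPM in DSF/Cu and 8.45, 10.1 and 8.37 CPM in DMSO (log2 0.12 ± 0.12, edgeR adjusted p = 0.497), and its groups overlapped. PCOLCE, which enhances that cut, was at 0.709, 1.39 and 1.49 CPM in DSF/Cu and 2.37, 2.10 and 2.12 CPM in DMSO. Its groups did not overlap, but the difference was not called (log2 -0.88 ± 0.31, edgeR adjusted p = 0.0705); it was called with DESeq2 (0.0147), under total-count scaling (0.039) and in both limma fits (0.0151 and 0.031).

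**Figure D2:**
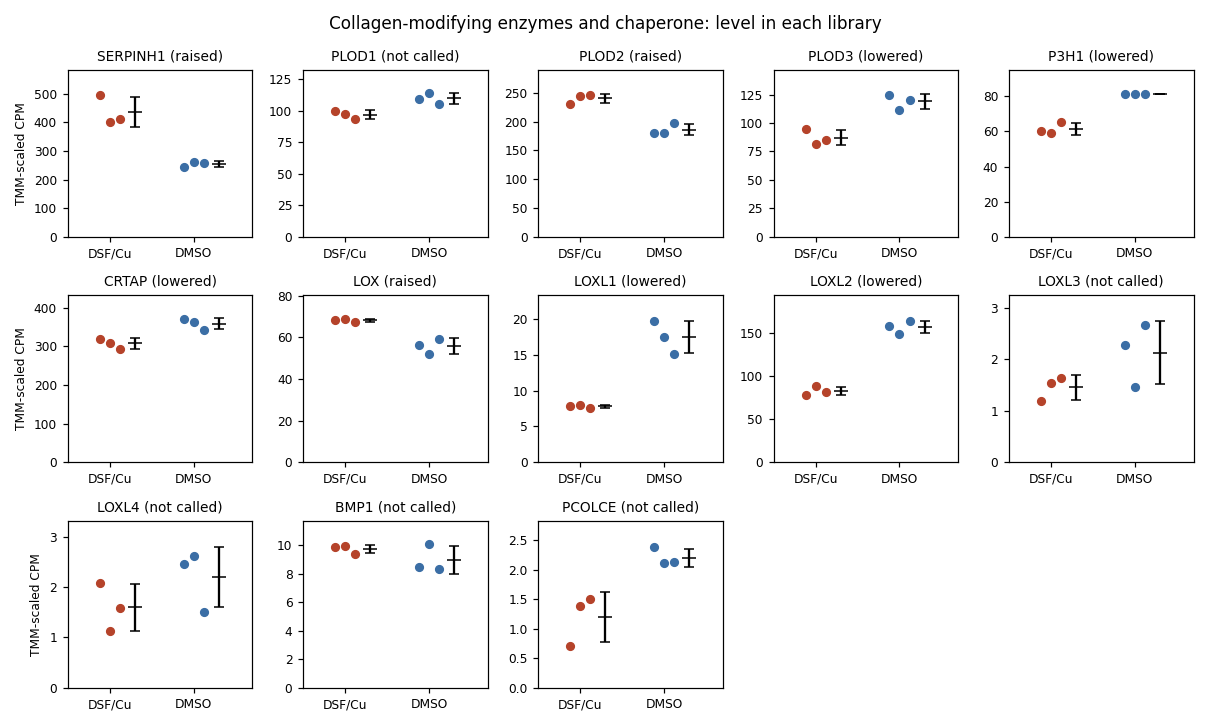
Level of each of the 13 enzymes in each library (TMM-scaled CPM, vertical axes from 0), with DSF/Cu left and DMSO right and the mean and SD beside the points. The DSF/Cu points lie wholly above the DMSO points for SERPINH1, PLOD2 and LOX, and wholly below for PLOD1, PLOD3, P3H1, CRTAP, LOXL1, LOXL2 and PCOLCE.

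Fibrillar collagens form the striated fibrils of connective tissue. Of the 11 genes, 6 were tested and 5 rose, with 0 falling, beside 18.5% raised of all tested genes; COL11A1 and COL24A1 among the 5 passed the filter only through DSF/Cu. Levels were low: the class summed to 3.65 ± 0.0921 FPKM in DSF/Cu and 2.80 ± 0.183 FPKM in DMSO. COL27A1, a fibrillar chain known from cartilage, was at 26.7, 26.4 and 26.2 CPM in DSF/Cu and 19.8, 16.1 and 17.0 CPM in DMSO. It rose 1.5-fold (log2 0.58 ± 0.10, edgeR adjusted p = 0.00529) with no overlap, and missed the threshold in the limma fit of log2(FPKM + 0.1) (adjusted p = 0.0602). COL5A2 was at 4.18, 5.91 and 5.33 CPM in DSF/Cu and 2.24, 2.94 and 3.0 CPM in DMSO (log2 0.92 ± 0.20, edgeR adjusted p = 0.0139), again with no overlap. Its partner COL5A1, with which it forms the type V trimer that nucleates fibrils, was at 14.1, 13.2 and 12.8 CPM in DSF/Cu and 13.7, 13.3 and 14.5 CPM in DMSO (log2 -0.05 ± 0.10, edgeR adjusted p = 0.728).

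COL1A1, the main chain of type I collagen, rose at a low level. It had 333, 311 and 366 counts in DSF/Cu and 247, 100 and 135 counts in DMSO, or 5.90, 5.39 and 6.92 CPM in DSF/Cu and 3.24, 1.49 and 2.04 CPM in DMSO. The groups did not overlap, and the rise was 2.68-fold (log2 1.42 ± 0.30, edgeR adjusted p = 0.0115), at 0.489 FPKM in DSF/Cu and 0.204 FPKM in DMSO. Its partner chain COL1A2 was not tested, at 13, 6 and 8 counts in DSF/Cu and 4, 0 and 0 counts in DMSO. COL11A1 had 23, 27 and 32 counts in DSF/Cu and 0, 4 and 0 in DMSO (edgeR adjusted p = 0.022), and COL24A1 had 23, 29 and 25 counts in DSF/Cu and 0, 0 and 4 in DMSO (edgeR adjusted p = 0.0244). No fold change is given for counts this low, and both calls were lost in several alternatives, including the fits without any 1 of the DSF/Cu libraries. COL3A1, the neighbour of COL5A2 on chromosome 2, had 4, 0 and 4 counts in DSF/Cu and 0, 8 and 0 in DMSO.

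Network collagens hold the basement membrane, and COL4A2 of type IV had the highest collagen level in CPM in both groups. Of the 9 genes, 7 were tested and 2 fell, with 0 rising, beside 16.8% lowered of all tested genes. The class summed to 12.4 ± 0.825 FPKM in DSF/Cu and 16.2 ± 1.78 FPKM in DMSO, 0.770 times the DMSO level. By TMM-scaled CPM the sum was 0.850 times the DMSO level. COL4A2 was at 144, 142 and 149.7 CPM in DSF/Cu and 199, 183 and 181 CPM in DMSO. Every DSF/Cu value was below every DMSO value (log2 -0.37 ± 0.06, edgeR adjusted p = 0.00388). COL4A1, which borders the stretch printed above and joins COL4A2 in 1 trimer, was at 75.3, 80.2 and 78.9 CPM in DSF/Cu and 78.8, 74.8 and 79.2 CPM in DMSO. Those values overlapped (log2 0.01 ± 0.06, edgeR adjusted p = 0.914), and its sign was negative under total-count scaling and in the limma fits. In the deposited table the COL4A1 and COL4A2 genes overlap by 1346 bases on opposite strands, and the printed stretch lies inside COL4A2.

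COL4A4, a chain of the basement membranes of kidney, lung and cochlea, was at 4.57, 4.97 and 4.44 CPM in DSF/Cu and 7.84, 6.10 and 6.34 CPM in DMSO. It fell (log2 -0.54 ± 0.15, edgeR adjusted p = 0.033) with no overlap, but lost its call without DMSO replicate 1 (0.0913) or 3 (0.0588), without DSF/Cu replicate 1 (0.0851), 2 (0.0618) or 3 (0.0941), and with no filter on low counts (0.0547). COL4A3, its neighbour in opposite orientation, had 44, 30 and 7 counts in DSF/Cu and 39, 34 and 4 counts in DMSO and was not called. COL4A5 averaged 2.35 ± 0.576 CPM in DSF/Cu and 2.96 ± 0.679 CPM in DMSO and was not called, and its neighbour COL4A6 had 10, 0 and 0 counts in DSF/Cu and 0 in DMSO. COL8A1, a short-chain collagen of vessel walls and cornea, was the least repeatable member of this abundance, at 23.6, 8.30 and 22.9 CPM in DSF/Cu and 28.8, 11.3 and 12.3 CPM in DMSO (log2 0.07 ± 0.51, edgeR adjusted p = 0.937). Its partner COL8A2 stayed under 1 CPM in every library.

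Type VI collagen forms beaded filaments from 3 kinds of chain, and these did not move alike. COL6A1 was at 9.08, 9.08 and 9.21 CPM in DSF/Cu and 13.8, 11.5 and 11.6 CPM in DMSO. It fell (log2 -0.43 ± 0.12, edgeR adjusted p = 0.028) with no overlap, a call that ended without DMSO replicate 1 (0.0743) or DSF/Cu replicate 1 (0.0698), 2 (0.0767) or 3 (0.0706). COL6A2, its neighbour on chromosome 21, was at 15.6, 14.9 and 17.9 CPM in DSF/Cu and 17.4, 17.9 and 18.1 CPM in DMSO (log2 -0.14 ± 0.10, edgeR adjusted p = 0.325; under total-count scaling 0.0489). COL6A3, the long chain, was at 16.1, 17.4 and 16.7 CPM in DSF/Cu and 14.4, 13.4 and 12.9 CPM in DMSO. Its values did not overlap and it rose by the main test (log2 0.30 ± 0.09, edgeR adjusted p = 0.0444), though the fit without any 1 of the 6 libraries gave adjusted p-values of 0.0575 to 0.126 and total-count scaling 0.402.

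COL7A1 encodes the anchoring fibrils that fasten epithelium to the dermis. It was at 33.7, 29.2 and 33.7 CPM in DSF/Cu and 20.1, 18.4 and 19.5 CPM in DMSO. All DSF/Cu values lay above all DMSO values, and it rose 1.67-fold (log2 0.74 ± 0.09, edgeR adjusted p = 0.00144), the largest fold rise among the 11 more abundant collagen genes. Its upstream sequence, with 1 heat shock core 167 to 160 bases before the RefSeq start, is printed above. COL28A1, a related beaded-filament chain, had 34, 39 and 45 counts in DSF/Cu and 0, 0 and 4 in DMSO (edgeR adjusted p = 0.0126).

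The FACIT collagens sit on the surface of fibrils and do not build fibrils themselves. Of 10 genes, 5 were tested and 3 rose, beside 18.5% of all tested genes, and COL20A1 among them passed the filter only through DSF/Cu. COL12A1, the abundant one, was at 106, 108 and 106 CPM in DSF/Cu and 98.6, 89.2 and 85.5 CPM in DMSO. The groups did not overlap, but the rise was small (log2 0.23 ± 0.07, edgeR adjusted p = 0.0367) and ended under total-count scaling (log2 0.05, adjusted p = 0.667), without DMSO replicate 2 (0.118) or 3 (0.117) and without DSF/Cu replicate 1 (0.0749), 2 (0.0935) or 3 (0.0764). COL16A1 was at 2.29, 1.75 and 1.29 CPM in DSF/Cu and 0.643, 0.701 and 0.787 CPM in DMSO (log2 1.32 ± 0.29, edgeR adjusted p = 0.0136), with no overlap, and missed the threshold with limma on log2(FPKM + 1) (0.0578). COL20A1 had 41, 21 and 15 counts in DSF/Cu and 0, 0 and 4 in DMSO (edgeR adjusted p = 0.0301), a call lost in 9 of its 13 alternatives.

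Transmembrane collagens span the plasma membrane, and COL13A1, found at cell adhesion sites and the neuromuscular junction, was the most abundant collagen gene by FPKM in both groups. It was at 73.7, 73.1 and 79.3 CPM in DSF/Cu and 126, 122 and 125 CPM in DMSO. The groups were far apart (log2 -0.72 ± 0.06, edgeR adjusted p = 0.000281), and the FPKM was 10.2 in DSF/Cu and 19.1 in DMSO. COL17A1, the hemidesmosome collagen of basal epithelium, averaged 4.85 ± 0.749 CPM in DSF/Cu and 5.66 ± 1.22 CPM in DMSO, with overlap and no call.

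The multiplexins, whose C-terminal pieces include endostatin, moved apart. COL18A1, the parent of endostatin, was at 27.2, 23.6 and 32.1 CPM in DSF/Cu and 49.8, 41.8 and 46.2 CPM in DMSO. It fell (log2 -0.73 ± 0.13, edgeR adjusted p = 0.00598) and its groups did not overlap. COL15A1 had 224, 261 and 133 counts in DSF/Cu and 25, 23 and 12 counts in DMSO, or 3.97, 4.52 and 2.52 CPM in DSF/Cu and 0.328, 0.343 and 0.182 CPM in DMSO. It rose 12.8-fold (log2 3.68 ± 0.36, edgeR adjusted p = 0.000638), the largest rise among members with 10 or more counts in every DMSO library, and stayed at 0.439 FPKM in DSF/Cu and 0.0368 FPKM in DMSO. COL26A1, which belongs to none of these classes, had 22, 58 and 20 counts in DSF/Cu and 0 in all 3 DMSO libraries (edgeR adjusted p = 0.00704), and no fold is given.

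**Figure D3:**
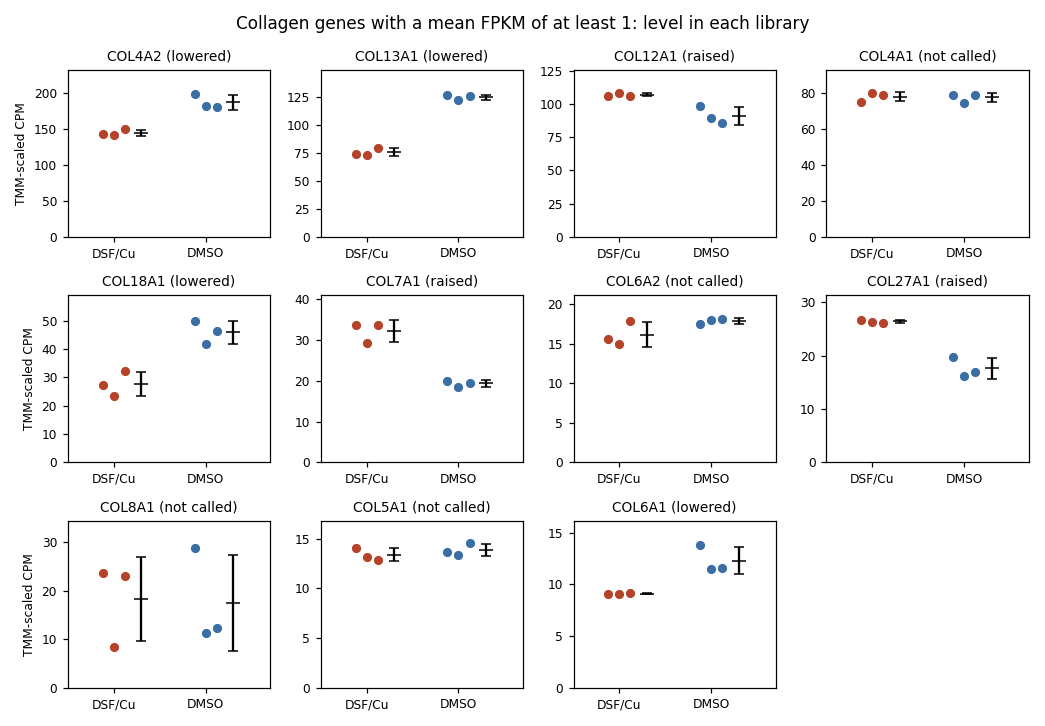
Level in each library (TMM-scaled CPM, vertical axes from 0) of the 11 collagen genes with a mean FPKM of at least 1 in either group, with DSF/Cu left and DMSO right and the mean and SD beside the points. COL13A1, COL18A1, COL4A2 and COL6A1 lie lower in DSF/Cu with no overlap, COL7A1, COL12A1 and COL27A1 lie higher, and COL8A1 spreads widely in both groups.

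The remaining collagen genes were scarce or silent. COL9A2, COL19A1, COL4A3, COL4A5, COL8A2 and COL17A1 were tested and not called, each with overlapping groups. COL2A1, COL5A3, COL6A5, COL9A1, COL14A1 and COL22A1 had 0 counts in all 6 libraries. If 4 counts stand for 1 fragment, a count of 0 allows up to 3 fragments, or 0.157 to 0.227 CPM in a library, counting error only. COL10A1, COL11A2, COL1A2, COL21A1, COL23A1, COL25A1, COL3A1, COL4A6, COL6A6 and COL9A3 had counts, at most 38 in a library, and were not tested.

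Because trimers are built from fixed partner chains, the ratio of partner genes was compared within each library on the FPKM scale. The COL4A2 to COL4A1 ratio was 1.45, 1.35 and 1.44 in DSF/Cu and 1.92, 1.86 and 1.73 in DMSO, with means of 1.41 ± 0.0589 in DSF/Cu and 1.84 ± 0.0971 in DMSO (SD, n = 3 each, exact permutation p = 0.1). The COL6A3 to COL6A1 ratio averaged 0.50 ± 0.0194 in DSF/Cu and 0.300 ± 0.0160 in DMSO, the COL6A2 to COL6A1 ratio 1.77 ± 0.154 in DSF/Cu and 1.46 ± 0.173 in DMSO, and the COL5A2 to COL5A1 ratio 0.593 ± 0.121 in DSF/Cu and 0.300 ± 0.0449 in DMSO. None of the 4 pairs of groups overlapped, and each gave an exact two-sided permutation p of 0.1, the smallest that 3 against 3 allows, and 0.125 after Benjamini-Hochberg adjustment over 5 ratios. The COL4A4 to COL4A3 ratio was erratic because COL4A3 had few counts (exact permutation p = 0.5). These ratios do not depend on how libraries are scaled.

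**Figure D4:**
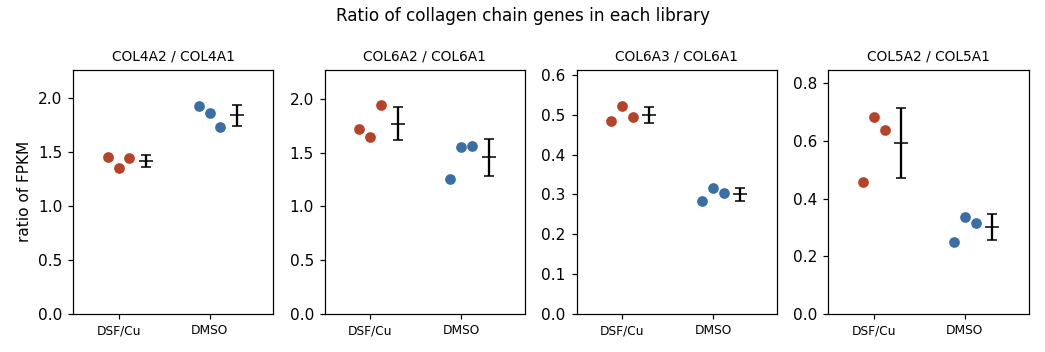
Ratio of the FPKM of partner chain genes in each library (vertical axes from 0, no unit), with DSF/Cu left and DMSO right and the mean and SD beside the points. COL4A2 to COL4A1 is lower in DSF/Cu, and COL6A2 to COL6A1, COL6A3 to COL6A1 and COL5A2 to COL5A1 are higher, each without overlap of the 3 points per group.

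Summed over the 44 genes, collagen RNA was 602, 583 and 622 CPM in DSF/Cu and 711, 636 and 645.5 CPM in DMSO, so that the highest DSF/Cu library lay just under the lowest DMSO library. The DSF/Cu mean was 0.907 times the DMSO mean. By FPKM, which is not TMM-scaled, it was 0.769 times, at 44.7 ± 2.13 FPKM in DSF/Cu and 58.1 ± 3.78 FPKM in DMSO. COL4A2 took 24.1% of collagen CPM in DSF/Cu and 28.3% in DMSO, COL13A1 12.5% in DSF/Cu and 18.7% in DMSO, COL12A1 17.8% in DSF/Cu and 13.7% in DMSO, and COL4A1 13.0% in DSF/Cu and 11.7% in DMSO. These 4 genes held most collagen RNA in both groups, and COL12A1 passed COL13A1 in DSF/Cu. COL1A1, for all its rise, held 1.01% in DSF/Cu and 0.340% in DMSO.

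Other genes were counted in 10 lists of 86 genes in the table, of which 70 were tested, 28 rose and 13 fell. Most lists are of the collagen pathway. The heat shock and endoplasmic reticulum chaperones are general, were listed only beside SERPINH1, and gave 7 and 4 of the 28 rises. Over all tested genes 18.5% rose and 16.8% fell, which is the background for each list below, and the 13 that fell are near it. Among 12 tested further modifiers 3 rose and 3 fell. COLGALT1, which adds galactose to hydroxylysine, averaged 181 ± 6.72 CPM in DSF/Cu and 295 ± 6.95 CPM in DMSO (log2 -0.70 ± 0.05, edgeR adjusted p = 0.000207), the prolyl 3-hydroxylases P3H3 and P3H2 changed by log2 -1.22 and -0.70, and the prolyl 4-hydroxylase subunit P4HA2 by 0.39. The call of P4HA2 was lost in 2 of its 15 alternatives. The list median was -0.34. Of 11 tested export genes 5 rose and 1 fell (median 0.34). SEC24D, the COPII subunit for procollagen cargo, averaged 111 ± 5.70 CPM in DSF/Cu and 59.6 ± 1.42 CPM in DMSO (log2 0.90 ± 0.06, edgeR adjusted p = 0.000169), SAR1B and SEC13 of the same coat rose by log2 0.97 and 0.57, and KLHL12, an adaptor of the ubiquitin ligase that enlarges these carriers, was at log2 -0.44.

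Genes that supply proline and glycine, the main residues of the helix, leaned down: of 6 tested, 0 rose and 5 fell (median -0.54). ALDH18A1, PYCR3 and PYCR1 of proline synthesis stood at log2 -0.55, -1.28 and -0.54, and SHMT1, which interconverts serine and glycine, at -0.62. Among the 5 copper supply genes 2 rose: the uptake transporter SLC31A1 (log2 0.64 ± 0.06, edgeR adjusted p = 0.000611) and ATP7A, the pump that loads copper onto lysyl oxidases in the Golgi. ATP7A averaged 8.20 ± 0.827 CPM in DSF/Cu and 4.71 ± 0.402 CPM in DMSO (log2 0.80 ± 0.14, edgeR adjusted p = 0.00578). The copper chaperone ATOX1 was not called (log2 0.06 ± 0.06, edgeR adjusted p = 0.495). Of 4 tested N-propeptidase and processing genes, PCOLCE2 (log2 -0.50) and ADAMTS3 (log2 -0.54) fell and 0 rose, and these calls were lost in 7 and 9 of 15 alternatives.

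Breakdown genes held the largest change of these lists outside the chaperones. The interstitial collagenase MMP1 averaged 134 ± 17.6 CPM in DSF/Cu and 18.0 ± 2.16 CPM in DMSO (log2 2.89 ± 0.13, edgeR adjusted p = 5.0e-05). The membrane collagenase MMP14 averaged 398 ± 22.5 CPM in DSF/Cu and 553 ± 4.93 CPM in DMSO (log2 -0.47 ± 0.05, edgeR adjusted p = 0.00098). CTSL and PEPD, which cut collagen in lysosomes and free proline from dipeptides, rose by log2 0.39 and 0.20 (the call of PEPD was lost in 10 of its 15 alternatives), and MRC2 is not analysed here. Of 8 tested collagen receptors 2 rose, DDR2 (log2 1.43) and ADGRG1 (log2 1.26), both scarce, and of 4 tested collagen-binding proteins 2 rose, THBS1 (log2 1.92 ± 0.06, edgeR adjusted p = 1.1e-05) and TNXB (log2 1.06). The calls of TNXB and ADGRG1 were lost in 8 and 3 of 15 alternatives.

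SERPINH1 is both an endoplasmic reticulum chaperone and a heat shock gene, so both groups were counted beside it. Of 8 heat shock chaperones 7 rose and 0 fell (median log2 1.34), with HSPA1B at log2 6.31, HSPH1 at 2.17, HSP90AA1 at 1.35 and HSPA8 at 1.05. Of 7 endoplasmic reticulum chaperones 4 rose and 1 fell (median log2 0.27), with HSPA5 at 2.40, CALR at 0.48 and HSP90B1 at 0.27 while PDIA4 fell by 0.36. The call of HSP90B1 was lost in 3 of its 15 alternatives. SERPINH1, at 0.78, rose less than the 4 named heat shock genes. The relation between SERPINH1 and these genes was not tested.

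**Figure D5:**
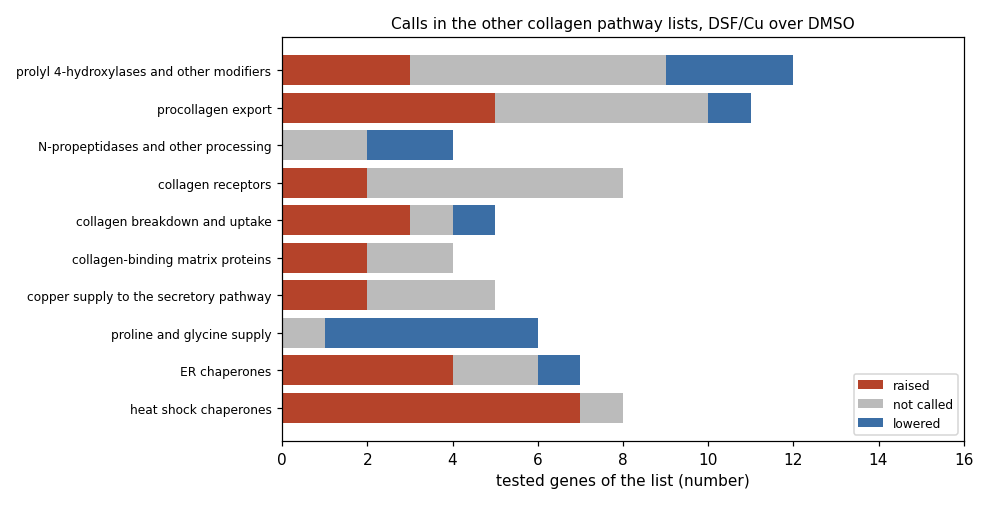
Number of tested genes (horizontal axis) raised, not called or lowered in DSF/Cu over DMSO in each of the 10 other lists. The heat shock and endoplasmic reticulum chaperones are general lists and not of the collagen pathway. Heat shock chaperones show 7 raised and 0 lowered, proline and glycine supply 0 raised and 5 lowered, and the modifier list 3 of each.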

How the data were processed

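Poly(A) RNA of 3 DSF/Cu and 3 DMSO libraries was sequenced as paired ends, per the labels' protocols. The authors deposited 1 table with a whole-number count and an FPKM value for each gene and library; columns headed Control were taken as DMSO. Per the submitters' processing notes, StringTie 1.3.0, HISAT2 2.0 and Bowtie 0.12.2 were used, beside a mouse build; the genes and coordinates in the table are human. How reads were assigned to genes and strands is not stated. The deposited counts clustered at multiples of 4 when low.

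Genes were filtered by filterByExpr, scaled by TMM and tested by the two-sided quasi-likelihood test of edgeR 4.0.16 (R 4.3.3) over all 18229 genes, with Benjamini-Hochberg adjusted p under 0.05 as the call and standard errors from the log2 fold change divided by the root of F. Alternatives were total-count and relative log expression scaling, DESeq2 1.42.0, no filter, a mean CPM of at least 1, limma 3.58.1 on the deposited FPKM as log2(FPKM + 1) and log2(FPKM + 0.1), a replicate block, leaving out each library, and counts divided by 4 (added after seeing the data). Values in every library are given for called members, all lysyl oxidases, SERPINH1 and uncalled members with a mean FPKM of at least 1; from each other list up to 4 called genes by adjusted p, plus ATP7A and ATOX1. PCOLCE, COL3A1, COL1A2, COL4A3 and COL4A6 were added as partners or neighbours, and PYCR1 and PPIB after their values were seen. A gene that meets the rule is not reported here. The members and lists were chosen with earlier results of these data known. No library was a copy of another (chi-square per degree of freedom 50.2 to 64.0 within groups). Counts were also simulated for 18229 genes, and the numbers here cover those that passed the filter. Recovered were 2 of 56 genes changed 1.5-fold, 27 of 68 changed 2-fold and 43 of 65 changed 4-fold. Of unchanged genes, 7 of 17381 were called. The simulation changed a far smaller share of genes than the 35.2% called in the data, so its recovery does not carry over to this comparison. Promoters are RefSeq, GRCh38.p14; 14 members had no entry. Floors cover counting error only.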

Additional observations from a re-analysis of the deposited data

How the results depend on the processing

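Against 13 collagen genes raised in the main test, the number raised was 8 at a mean CPM of at least 1, 8 with counts divided by 4, 7 with limma on log2(FPKM + 1), 6 with a replicate block and 8 to 11 with 1 library left out; the 11, without DMSO replicate 3, include COL11A2, which the main test did not cover. Of 5 lowered, 3 were lowered with the block and 3 to 5 with 1 library left out. Of 3 enzymes raised, 1 was raised under total-count scaling (SERPINH1) and 2 to 3 with 1 library left out, and 4 to 5 enzymes were lowered with 1 left out. Genes lowered among all tested numbered 4856 under total-count scaling, 4791 with limma on log2(FPKM + 1) and 4727 on log2(FPKM + 0.1), against 3059 in the main test; raised genes numbered 2356 under total-count scaling against 3365, because that scaling shifts the median of all genes by -0.18. Leaving out 1 library gave 2786 to 2953 raised and 2284 to 2550 lowered genes. Under the block 2692 genes were raised and 2451 lowered.

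Among results that were not called, the sign turned as follows (log2). Total-count scaling gave -0.175 for COL4A1, -0.128 for COL8A1, -0.0652 for BMP1 and -0.129 for ATOX1. Limma on log2(FPKM + 1) gave -0.133 for COL4A1, -0.0581 for COL8A1, -0.0244 for BMP1 and -0.107 for ATOX1. Limma on log2(FPKM + 0.1) gave -0.159, -0.104, -0.0407 and -0.114 in the same order. With no filter COL4A1 stood at -0.0107. Leaving out 1 library gave -0.0207 to 0.0378 for COL4A1, -0.136 to 0.852 for COL4A3 and -0.175 to 0.629 for COL8A1. SERPINH1, LOXL1, LOXL2, PLOD3, P3H1, COL4A2, COL13A1, COL18A1, COL7A1, COL15A1, COL1A1 and COL5A2 kept their calls in all 15 alternatives; the cause of lost calls was not tested. Same-numbered libraries deviated together only weakly (r = 0.0257, 0.031 and 0.0564), though each correlated best with its own number. No threshold was set for these values, so they do not settle whether the libraries are pairs, and the main test was unpaired. The block ended the calls of COL11A1, COL12A1, COL16A1, COL20A1, COL24A1, COL26A1, COL4A4, COL6A1 and COL6A3. Low counts that cluster in part at multiples of 4 limit what can be said of collagen genes under about 1 CPM.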
